A study of Mus musculus with 36 samples.

Results

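Proximal forelimbs carrying the Del(CBS1-3) allele were compared with wild-type (WT) proximal forelimbs in mouse embryos at E12.5. The comparison holds 6 of the 36 libraries of the series, chosen by the genotype and tissue in their titles: 3 of Del(CBS1-3) and 3 of WT. The series removed sites bound by CTCF (CBS) from the Hoxd cluster one after another by CRISPR/Cas9, and measured each of 6 genotypes in the proximal and the distal forelimb. The labels give the strain B6CBAF1 for every library, and each library was made from the micro-dissected limb pair of an individual. Del(CBS1-3) lacks the sites numbered 1 to 3, whereas the WT has no deletion. Where the neighbouring alleles are used, Del(CBS1-4) lacks 1 site more and Del(CBS1-2) lacks 1 site fewer, again with 3 libraries each. The labels used here do not state whether the mutants were homozygous, how many founder lines an allele stands for, where the sites lie, or which embryos were litter mates. The deleted sites are not transcribed units, so the expression values cannot check the allele itself.

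The Hoxd genes encode homeodomain transcription factors, and they lie side by side on chromosome 2 in the order in which they are deployed along the body and limb axes. In the limb bud they respond to enhancers in a pair of flanking regulatory landscapes, and the telomeric landscape drives them in the future arm and forearm whereas the centromeric landscape drives them in the future digits. CTCF is a DNA-binding protein at which loop-extruding cohesin stops, so that its sites help to set the borders of chromatin domains. The Hoxd cluster holds a series of such sites between its genes.

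The promoters of 4 genes are printed because they belong to the HoxD genes called lower and to the HoxD gene with the smallest difference. They are the 250 bases before a RefSeq start of Hoxd3, Hoxd4 and Hoxd8 (the genes called lower in Del(CBS1-3)) and of Hoxd11, on the plus strand of GRCm38.p6. Capitals mark a match to CCAAT or TATAAA on either strand.
Hoxd3 (chr2:74711743-74711992): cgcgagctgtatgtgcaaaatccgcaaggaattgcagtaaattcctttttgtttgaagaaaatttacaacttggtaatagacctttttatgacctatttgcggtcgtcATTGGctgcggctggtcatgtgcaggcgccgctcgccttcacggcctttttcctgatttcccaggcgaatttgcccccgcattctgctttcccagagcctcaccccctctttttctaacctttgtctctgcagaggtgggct
Hoxd4 (chr2:74721728-74721977): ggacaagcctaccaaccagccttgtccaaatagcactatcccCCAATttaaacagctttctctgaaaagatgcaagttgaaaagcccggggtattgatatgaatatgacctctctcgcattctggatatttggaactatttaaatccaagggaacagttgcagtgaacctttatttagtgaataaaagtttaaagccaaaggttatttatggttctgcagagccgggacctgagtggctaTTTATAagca
Hoxd8 (chr2:74704365-74704614): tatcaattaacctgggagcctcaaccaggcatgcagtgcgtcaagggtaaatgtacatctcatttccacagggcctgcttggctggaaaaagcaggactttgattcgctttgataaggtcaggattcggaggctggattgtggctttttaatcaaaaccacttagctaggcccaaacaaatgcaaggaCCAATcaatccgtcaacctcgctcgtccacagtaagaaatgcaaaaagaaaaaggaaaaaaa
Hoxd11 (chr2:74682073-74682322): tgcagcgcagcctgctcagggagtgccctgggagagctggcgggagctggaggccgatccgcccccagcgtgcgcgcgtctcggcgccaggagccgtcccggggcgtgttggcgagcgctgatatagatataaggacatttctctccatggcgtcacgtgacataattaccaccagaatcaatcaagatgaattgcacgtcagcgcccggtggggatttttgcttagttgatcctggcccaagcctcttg
The window of Hoxd3 held a CCAAT match on the minus strand, that of Hoxd8 held one on the plus strand, that of Hoxd4 held one CCAAT match and one TATAAA match, and that of Hoxd11 held neither. Among 32851 RefSeq promoter windows, 33.8% held CCAAT and 12.4% held TATAAA on either strand. The windows differed in base composition, with 12 CpG and 49.2% GC in that of Hoxd3, 3 CpG and 40.4% GC in that of Hoxd4, 6 CpG and 44.4% GC in that of Hoxd8, and 20 CpG and 60.4% GC in that of Hoxd11. Hoxd11 has another RefSeq start, whose window (chr2:74679308-74679557) is not printed. That window also held neither match, and had 2 CpG and 44.8% GC, so the composition given for Hoxd11 depends on the start chosen.

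The Del(CBS1-3) libraries held 13011373 to 13862462 counts and the WT libraries 12793148 to 16077070, all from autosomal genes. Levels are given as CPM, counts scaled to library size with TMM factors. On this scale genes of different length cannot be compared. Differences are given as log2 fold changes of Del(CBS1-3) over WT with their standard error (SE). All 18 patterning genes listed for the proximal limb passed the filter on low counts. This shows that they were detected but does not separate proximal from distal tissue. Of the values given next, only those of Hoxd13 compare the tissues. Shox2, needed for the upper arm bone, had 430.0, 384 and 429 CPM in Del(CBS1-3) and 387, 290.0 and 406 CPM in WT. Hoxd13, the gene of the future digits, averaged 20.2 CPM in proximal and 860.4 CPM in distal Del(CBS1-3) tissue. The WT library numbered 2 stood apart, with the highest mean log2(CPM + 1) over 20 genes of distal patterning. This score was 5.08, 5.00 and 5.15 in Del(CBS1-3) and 5.07, 5.68 and 5.26 in WT. Where leaving out 1 library moves a list's median by much, the value without it is given.

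In Del(CBS1-3) proximal forelimbs the tested HoxD genes on both sides of Hoxd11 lay below WT, while Hoxd11 itself was at nearly its WT level. The genes called were Hoxd3, Hoxd4 and Hoxd8, with mean levels 72.5%, 56.1% and 35.2% below those of WT. At the digit end Hoxd12 and Hoxd13 were 40.9% and 63.0% below WT but were not called, and much of the Hoxd13 difference came from 1 WT library. The cluster has 9 HoxD genes and 8 entered the test, since Hoxd1 had only 3, 6 and 0 counts in Del(CBS1-3) and 4, 3 and 3 counts in WT. All 8 had a negative log2 fold change, with a median of -0.69 against 0.00421 over all genes tested. By edgeR's quasi-likelihood test with Benjamini-Hochberg adjustment over 15813 genes, 3 of the 8 were called at an adjusted p under 0.05, where 0.0696% of all genes were called. In 7 of the 8 genes (87.5%) every Del(CBS1-3) library lay below every WT library, which was true of 8.4% of all genes. In bulk tissue, fewer cells that express a gene and less RNA per cell cannot be told apart.

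Hoxd3 (chromosome 2, 74711927 to 74748271, plus strand, mm10) encodes a homeodomain protein best known from the neck vertebrae and the hindbrain. It had 3.15, 2.17 and 1.93 CPM in Del(CBS1-3) and 8.93, 7.18 and 10.3 CPM in WT, from 25 to 41 counts in Del(CBS1-3) libraries and 114 to 152 counts in WT libraries. All Del(CBS1-3) libraries lay far below all WT libraries. The mean was 2.42 ± 0.648 CPM in Del(CBS1-3) and 8.82 ± 1.59 CPM in WT (SD, n = 3 each), and the log2 fold change was -1.86 ± 0.27 (SE; edgeR, adjusted p = 0.0275).

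Hoxd4 (74721978 to 74729160) also acts in the neck vertebrae, and its gene model lies within that of Hoxd3 on the same strand. It had 12.3, 5.63 and 11.2 CPM in Del(CBS1-3) and 23.7, 19.9 and 22.7 CPM in WT. The groups did not overlap, and library 2 of Del(CBS1-3) was the lowest. The log2 fold change was -1.19 ± 0.19 (edgeR, adjusted p = 0.0275). Because the gene models overlap, how reads of shared exons were divided between Hoxd3 and Hoxd4 is uncertain.

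Hoxd8 (74704615 to 74707933) encodes another homeodomain factor and lies toward the middle of the cluster. It had 22.8, 23.0 and 24.6 CPM in Del(CBS1-3) and 35.6, 38.6 and 34.2 CPM in WT, with little spread inside either group. The log2 fold change was -0.63 ± 0.11 (edgeR, adjusted p = 0.0426). The antisense transcript Hoxd3os1, which overlaps Hoxd3 and Hoxd8 on the minus strand, averaged 1.18 CPM in Del(CBS1-3) and 1.26 CPM in WT, with a log2 fold change of -0.07 ± 0.43 (edgeR, adjusted p = 0.963).

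Hoxd9 and Hoxd10 encode proteins that act in the growth of the upper and lower arm with their HoxA counterparts. Hoxd9 (74697727 to 74700208) had 50.1, 46.1 and 63.5 CPM in Del(CBS1-3) and 68.5, 66.9 and 66.5 CPM in WT. Hoxd10 (74691924 to 74695105) had 103, 93.1 and 113 CPM in Del(CBS1-3) and 135, 131 and 143 CPM in WT. Neither pair of groups overlapped, but neither gene passed the threshold, with log2 fold changes of -0.34 ± 0.09 (edgeR, adjusted p = 0.148) for Hoxd9 and -0.40 ± 0.08 (edgeR, adjusted p = 0.0645) for Hoxd10.

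Hoxd11 (74682323 to 74684168), needed with Hoxa11 for the radius and ulna, was the only tested HoxD gene whose groups overlapped. It had 65.1, 62.8 and 59.3 CPM in Del(CBS1-3) and 68.5, 61.9 and 71.7 CPM in WT. The mean was 62.4 ± 2.90 CPM in Del(CBS1-3) and 67.3 ± 5.00 CPM in WT (SD, n = 3 each), with a log2 fold change of -0.11 ± 0.11 (edgeR, adjusted p = 0.721).

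Hoxd12 and Hoxd13 lie at the digit end of the cluster. Hoxd12 (74675013 to 74677705) had 48.0, 36.1 and 40.5 CPM in Del(CBS1-3) and 78.0, 63.9 and 69.1 CPM in WT, a clear gap between the groups, with a log2 fold change of -0.76 ± 0.17 (edgeR, adjusted p = 0.0764). Hoxd13 (74668310 to 74671599) had 24.0, 14.7 and 21.7 CPM in Del(CBS1-3) and 38.4, 90.1 and 33.9 CPM in WT, with a log2 fold change of -1.44 ± 0.44 (edgeR, adjusted p = 0.187). Library 2 of WT held much of that difference. Without it the log2 fold change of Hoxd13 was -0.84 ± 0.43 (edgeR, adjusted p = 0.545), and with the distal patterning score of each library as a covariate it was -0.66 ± 0.37 (edgeR, adjusted p = 0.661).

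**Figure D1:**
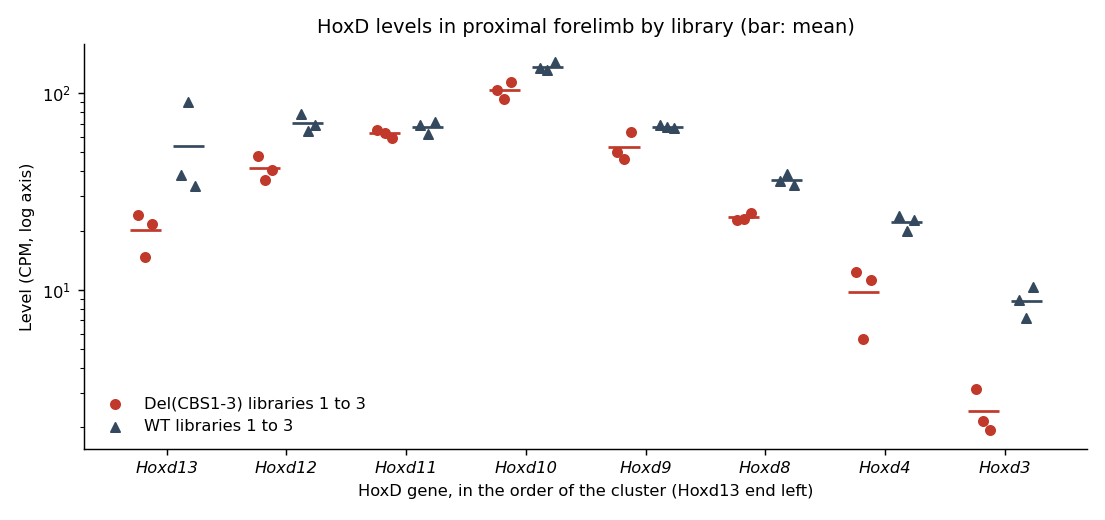
Levels of the 8 tested HoxD genes in CPM (log axis) in each proximal library, with Del(CBS1-3) left of WT for each gene and bars at the means. Hoxd1 is not drawn. The groups are separate at Hoxd3, with Del(CBS1-3) at 1.93 to 3.15 CPM and WT at 7.18 to 10.3 CPM, and overlap at Hoxd11, and the high WT point at Hoxd13 (90.1 CPM) is library 2.

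The calls rested on few libraries. With 1 library left out at a time, 0 to 3 HoxD genes were called: 2 without Del(CBS1-3) 1, 0 without Del(CBS1-3) 2 or 3, 3 without WT 1, 1 (Hoxd3) without WT 2, and 0 without WT 3. When the 6 libraries were fitted alone, 0 were called. In all of these fits the log2 fold changes kept their sign, from -2.10 to -1.73 for Hoxd3, from -1.40 to -0.91 for Hoxd4 and from -0.67 to -0.57 for Hoxd8 with 1 library left out. DESeq2 gave no adjusted p to these 3 genes at its default setting. There it called 3 other HoxD genes, Hoxd9, Hoxd10 and Hoxd12, where it called 1.99% of the 7226 genes to which it gave an adjusted p. It was also run without its independent filtering and its cutoff for outlier counts, a setting named below as DESeq2 without independent filtering. This called 5 HoxD genes, with adjusted p values of 1.81e-06 for Hoxd3, 7.99e-06 for Hoxd4, 0.00014 for Hoxd8, 0.00109 for Hoxd10 and 0.0255 for Hoxd12, where it called 0.708% of all genes.

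On the deposited FPKM scale, which is per length and lets genes be compared, the order of the mean HoxD levels differed between the genotypes in the places of Hoxd8 and Hoxd13, and this difference rested on library 2 of WT. Hoxd13 had 10.4, 24.9 and 9.27 FPKM in WT and Hoxd8 10.5, 10.75 and 10.3 FPKM, so that in WT 1 and WT 3 the order was that of Del(CBS1-3). In Del(CBS1-3) it ran from Hoxd10 (38.0 ± 3.60 FPKM) through Hoxd11 (30.8 ± 2.07), Hoxd9 (17.2 ± 2.83), Hoxd12 (11.4 ± 1.52), Hoxd8 (7.04 ± 0.757), Hoxd13 (5.65 ± 1.27) and Hoxd4 (3.30 ± 1.19) to Hoxd3 (0.813 ± 0.144 FPKM; SD, n = 3 each). Only Hoxd8 and Hoxd13 were neighbours whose Del(CBS1-3) libraries overlapped. In WT it ran from Hoxd10 (49.5 ± 1.96 FPKM) through Hoxd11 (33.0 ± 1.94), Hoxd9 (20.9 ± 0.240), Hoxd12 (18.8 ± 1.79), Hoxd13 (14.8 ± 8.71), Hoxd8 (10.5 ± 0.206) and Hoxd4 (7.03 ± 0.358) to Hoxd3 (2.49 ± 0.352 FPKM; SD, n = 3 each), and the libraries of Hoxd9 and Hoxd12, of Hoxd12 and Hoxd13, and of Hoxd13 and Hoxd8 overlapped. Hoxd1 was the lowest in both, at 0.0840 FPKM in Del(CBS1-3) and 0.0859 FPKM in WT.

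The 9 genes summed to 117, 106 and 119 FPKM in Del(CBS1-3) and to 155, 162 and 155 FPKM in WT. Every Del(CBS1-3) library had a smaller HoxD total than every WT library. Within that total Hoxd11 made up 27.2%, 30.1% and 23.8% in Del(CBS1-3) and 22%, 19% and 22% in WT, so its share was larger in each Del(CBS1-3) library. Hoxd3 made up 0.772%, 0.609% and 0.744% in Del(CBS1-3) and 1.42%, 1.48% and 1.87% in WT, a smaller share in each Del(CBS1-3) library.

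Genes around the cluster were not called. From Scrn3 to Rbm45, 25 genes other than Hox genes were tested, 18 of them coding for protein. Of the 25, edgeR called 0, with 7 at an unadjusted p under 0.05, where 2066 of all 15813 genes were. DESeq2 without independent filtering, and without its cutoff for outlier counts, called 1, Evx2. At its default DESeq2 gave Evx2 no adjusted p. In 3 of the 25 every Del(CBS1-3) library lay below every WT library (Lnpk, Evx2 and Gm14396) and in 2 above it (Atp5g3 and Mtx2), where 8.4% of all genes lay below and 8.49% above in this way. Lnpk, which encodes an endoplasmic reticulum protein and neighbours the cluster on its digit side, had 28.3, 24.4 and 29.8 CPM in Del(CBS1-3) and 31.7, 39.1 and 31.8 CPM in WT. Its log2 fold change was -0.32 ± 0.10 (edgeR, adjusted p = 0.192) and -0.21 without WT 2 (edgeR, adjusted p = 0.535). Evx2, a homeobox gene between Lnpk and Hoxd13, had 2, 1 and 1 counts in Del(CBS1-3) and 8, 148 and 7 counts in WT, so its WT level came mostly from library 2 (edgeR, adjusted p = 0.182). On the other side, Mtx2, which encodes a mitochondrial outer membrane protein, had 62.6, 62.8 and 69.2 CPM in Del(CBS1-3) and 58.1, 57.2 and 57.1 CPM in WT, with a log2 fold change of 0.17 ± 0.06 (edgeR, adjusted p = 0.254).

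Across the genome, 11 of 15813 genes were called (0.0696%), 2 higher (0.0126%) and 9 lower (0.0569%) in Del(CBS1-3). The 11 are the 3 HoxD genes and 8 genes on other chromosomes, and in all 11 the libraries of both groups did not overlap. Only 4 of the 11 differed by more than 1.5-fold, namely Hoxd3, Hoxd4, Hoxd8 and the gene model Gm49759. At an unadjusted p under 0.05 there were 2066 genes, 953 higher and 1113 lower, and 76 genes had an adjusted p under 0.1, of which 14 were higher and 62 lower. By other tools the split by direction was less one-sided, with 30 higher and 82 lower by DESeq2 without independent filtering, 48 higher and 96 lower by DESeq2 at its default (1.99% of the 7226 genes to which it gave an adjusted p), and 4 higher and 2 lower by limma on log2(FPKM + 1).

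**Figure D2:**
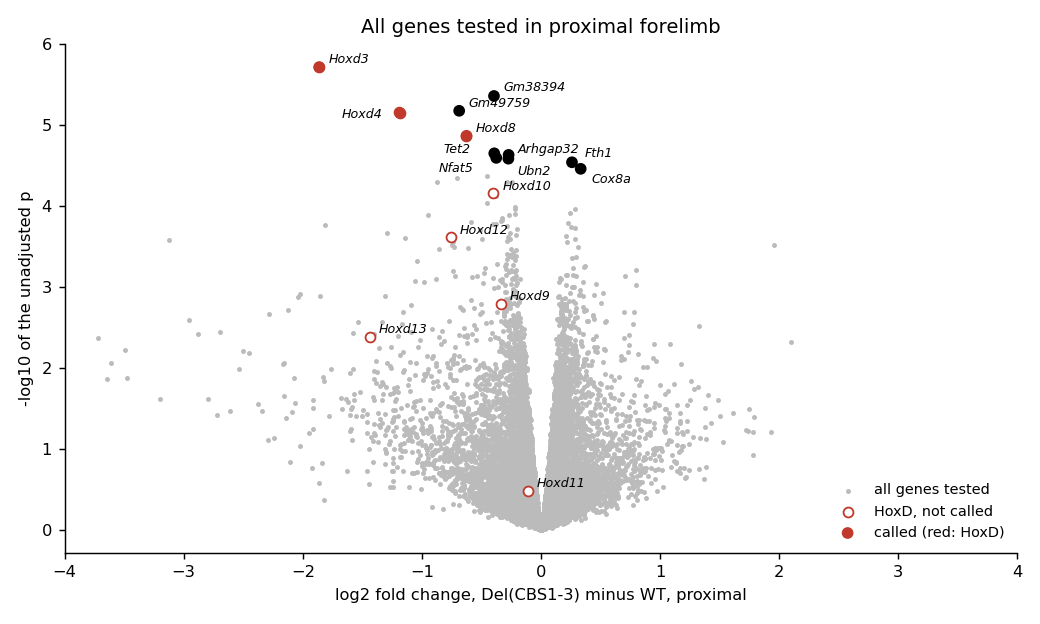
Log2 fold change of Del(CBS1-3) over WT (x axis) against -log10 of the unadjusted p (y axis) for the genes tested in proximal forelimb, with HoxD and called genes marked. Among the called genes Hoxd3 lies farthest to the left at -1.86, and 17 genes lie beyond the x axis limit of 4.

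Outside the HoxD cluster, 2 genes rose and 6 fell. All 8 were called in the opposite direction in Del(CBS1-4) minus Del(CBS1-3), for example Nfat5 at 0.57 ± 0.07 and Cox8a at -0.38 ± 0.06. Hoxd3, Hoxd4 and Hoxd8 were not called there. That comparison called 13.8% of all genes and shares the Del(CBS1-3) libraries, so it is not independent of the one against WT. Nfat5 (chromosome 8, 107293470 to 107379516), a transcription factor of the response to osmotic stress, had 214, 200 and 216 CPM in Del(CBS1-3) and 275, 278 and 263 CPM in WT (log2 fold change -0.38 ± 0.07; edgeR, adjusted p = 0.0452). Tet2 (chromosome 3, 133463679 to 133545139), an enzyme that oxidises methylated cytosine in DNA, had 42.5, 37.6 and 39.0 CPM in Del(CBS1-3) and 54.1, 51.8 and 50.5 CPM in WT (log2 fold change -0.39 ± 0.07; edgeR, adjusted p = 0.0452). Arhgap32 (chromosome 9, 32116136 to 32268446), a GTPase-activating protein, had 85.9, 88.5 and 86.4 CPM in Del(CBS1-3) and 105, 104 and 106 CPM in WT (log2 fold change -0.27 ± 0.05). These sets were tight within each genotype and did not touch.

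Ubn2 (chromosome 6, 38433950 to 38524825), a partner of the HIRA histone chaperone, had 111, 104 and 114 CPM in Del(CBS1-3) and 126, 135 and 136 CPM in WT (log2 fold change -0.27 ± 0.05). The 2 genes that rose lie on chromosome 19. Fth1 (9980598 to 9985098), the heavy chain of the iron store ferritin, had 324, 348 and 316 CPM in Del(CBS1-3) and 290.0, 263 and 272 CPM in WT (log2 fold change 0.26 ± 0.05). Cox8a (7215153 to 7217616), a subunit of cytochrome c oxidase, had 97.0, 108 and 92.5 CPM in Del(CBS1-3) and 82.9, 77.0 and 76.2 CPM in WT (log2 fold change 0.33 ± 0.06; edgeR, adjusted p = 0.0496).

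A pair of gene models was called too, and they are named here although they were chosen after their values were seen. Gm38394 (chromosome 1, 133619940 to 133661318) overlaps Zc3h11a on the same strand, and had 137, 136 and 124 CPM in Del(CBS1-3) and 173, 176 and 173 CPM in WT (log2 fold change -0.39 ± 0.06; edgeR, adjusted p = 0.0275). Gm49759 (chromosome 9, 59672814 to 59676700) lies inside Pkm, and had 31.5, 23.6 and 27.6 CPM in Del(CBS1-3) and 49.1, 46.9 and 37.0 CPM in WT (log2 fold change -0.69 ± 0.11; edgeR, adjusted p = 0.0275). Reads of these overlapping models cannot be assigned with certainty. Zc3h11a itself had a log2 fold change of -0.07 (edgeR, adjusted p = 0.89), and Pkm averaged 633 CPM in Del(CBS1-3) and 632 CPM in WT.

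**Figure D3:**
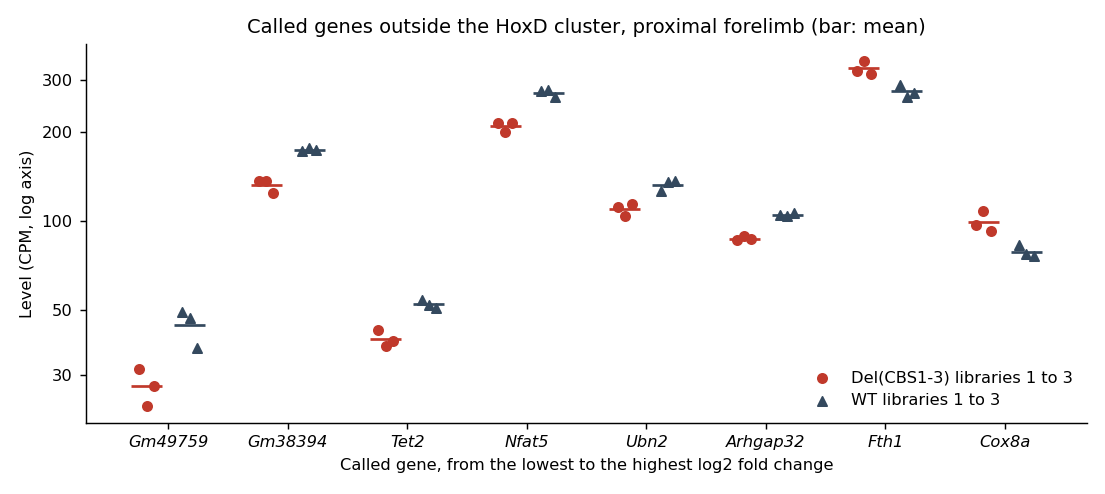
Levels in CPM (log axis) of the 8 called genes outside the HoxD cluster in each proximal library, with Del(CBS1-3) left of WT and bars at the means. In all 8 the libraries of both groups are apart, and the gaps are narrow beside that of Hoxd3, for example 316 to 348 CPM in Del(CBS1-3) and 263 to 290.0 CPM in WT for Fth1.

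Of the 6 fits that left out 1 library, Gm49759 was called in 3, Gm38394 in 2 and each of the other 6 genes outside the cluster in 1, where Hoxd3 was called in 3, Hoxd4 in 2 and Hoxd8 in 1. Over all genes, HoxD included, 10 were called without Del(CBS1-3) 1, 0 without Del(CBS1-3) 2 or 3, 52 (0.323%) without WT 1, 1 (0.00621%; Hoxd3) without WT 2 and 1 without WT 3. Of the 10 called without Del(CBS1-3) 1, 5 were among the 11. With the replicate number as a block, 13 genes were called (0.0822%) and 9 of the 11 were among them, and Fth1 (edgeR, adjusted p = 0.0777) and Arhgap32 (edgeR, adjusted p = 0.0504) were not. The 5 coding genes that fell outside the cluster had a median exonic length of 17179 nucleotides, where the coding genes tested had a median of 4518.5. Over all coding genes the median log2 fold change went with exonic length, from 0.0834 in the fifth with the shortest genes to -0.0568 in the fifth with the longest, and 373 gene models of GENCODE's unverified TEC class had a median of -0.34. The part of length in these calls was not tested.

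Gene lists of limb tissues and pathways showed few calls. Apart from the HoxD cluster, 1 member of any list was called, Cox8a among the nuclear genes of the respiratory chain. DESeq2 without independent filtering called, among others, Hoxa9 and Myog in the lists described next. For each list the members with the smallest p are named, and a log2 fold change is given for them as a value, not as a change. Counts of members at an unadjusted p under 0.05 by edgeR stand beside 2066 of all 15813 genes.

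**Figure D4:**
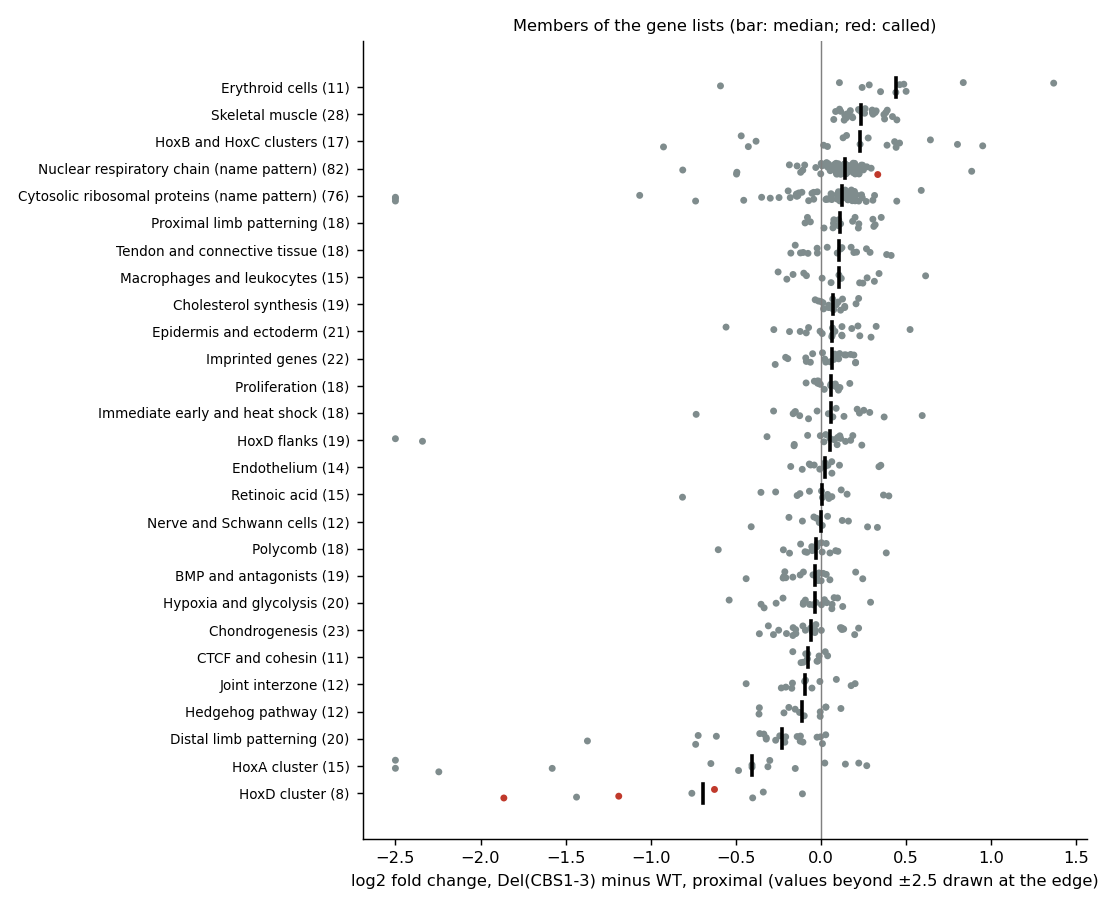
Log2 fold changes of Del(CBS1-3) over WT for the tested members of each gene list (points), with the number of members in brackets and a bar at the median. The HoxD cluster has the lowest median, -0.69, and the other medians lie between -0.41 for the HoxA cluster and 0.44 for erythroid cells.

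Genes of the HoxA cluster act with those of HoxD in the limb. All 15 listed members were tested. Of these edgeR called 0, with 9 at an unadjusted p under 0.05, and in 7 of them (46.7%) every Del(CBS1-3) library lay below every WT library, where 8.4% of all genes did. The median log2 fold change was -0.41. It was -0.25 without WT 2 and -0.11 with the distal patterning score as a covariate. Hoxa13, the HoxA gene of the digits, had 10.3, 9.24 and 10.4 CPM in Del(CBS1-3) and 13.7, 58.1 and 16.8 CPM in WT, so that WT 2 alone was high. Its log2 fold change was -1.58 ± 0.47 (edgeR, adjusted p = 0.182), and -0.62 without WT 2 (edgeR, adjusted p = 0.658). Hoxa9 had 107, 86.9 and 103 CPM in Del(CBS1-3) and 122, 130 and 114 CPM in WT (log2 fold change -0.30 ± 0.08; edgeR, adjusted p = 0.133). The 17 tested genes of the HoxB and HoxC clusters had a median of 0.23, which was -0.03 without Del(CBS1-3) 2, and Hoxb2 had 4.08, 5.20 and 4.72 CPM in Del(CBS1-3) and 2.35, 3.18 and 2.45 CPM in WT (log2 fold change 0.80 ± 0.19; edgeR, adjusted p = 0.111).

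Values of patterning genes along the limb rested largely on library 2 of WT. Of 20 distal patterning genes edgeR called 0, with 4 at an unadjusted p under 0.05. In 3 of them (15.0%) every Del(CBS1-3) library lay below every WT library, where 8.4% of all genes did. The median was -0.23, but -0.00629 without WT 2 and -0.36 without WT 1. Sall1, a zinc finger factor of the distal mesenchyme, had 100.4, 80.6 and 91.1 CPM in Del(CBS1-3) and 128, 181 and 139 CPM in WT (log2 fold change -0.72 ± 0.18; edgeR, adjusted p = 0.113). Wnt5a, a signal for outgrowth, had a log2 fold change of -0.21 ± 0.07 (edgeR, adjusted p = 0.22). The summed level of the list was 1190 to 1250 CPM in Del(CBS1-3) and 1290 to 1670 CPM in WT. Of 18 proximal patterning genes edgeR called 0, with 1 at an unadjusted p under 0.05, and 4 had every Del(CBS1-3) library above every WT library (22.2%, where 8.49% of all genes did), with a median of 0.11 that was 0.18 without Del(CBS1-3) 2, 0.05 without WT 2 and 0.22 without WT 3. Meis2, a homeodomain factor of the upper limb, had 47.9, 43.0 and 40.8 CPM in Del(CBS1-3) and 35.3, 31.7 and 39.7 CPM in WT (log2 fold change 0.30 ± 0.12; edgeR, adjusted p = 0.306), and Pkdcc, a secreted kinase of the skeleton, had 168, 184 and 167 CPM in Del(CBS1-3) and 156, 109 and 143 CPM in WT (log2 fold change 0.35 ± 0.17; edgeR, adjusted p = 0.40). The distal patterning score used as a covariate is the mean of these 20 distal genes themselves. It therefore cannot separate dissection from an effect of the allele on them. The part of dissection in these values was not tested.

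The signalling lists held 0 genes called by edgeR, and 3 Hedgehog, 1 retinoic acid and 3 BMP genes had an unadjusted p under 0.05. Of 12 Hedgehog pathway genes 3 had every Del(CBS1-3) library below every WT library, where 8.4% of all genes did, and the median was -0.11. Gli2, a transcription factor of the pathway, had 198, 191 and 209.6 CPM in Del(CBS1-3) and 216, 242 and 224 CPM in WT (log2 fold change -0.19 ± 0.07; edgeR, adjusted p = 0.257), and Hhip, which binds and restrains Hedgehog ligands, had overlapping groups and -0.36 ± 0.13 (edgeR, adjusted p = 0.25). Of 15 retinoic acid genes 3 were above and 1 below in every library, where 8.49% of all genes were above and 8.4% below. The median was 0.00864, and between -0.02 and 0.01 with 1 library left out. The receptor Rarb had a log2 fold change of 0.40 ± 0.21 (edgeR, adjusted p = 0.425). Among 19 BMP genes (median -0.03, but -0.11 without Del(CBS1-3) 2 and 0.04 without WT 2) the ligand Bmp4 had 59.7, 61.4 and 59.5 CPM in Del(CBS1-3) and 52.4, 55.6 and 48.8 CPM in WT (log2 fold change 0.20 ± 0.07; edgeR, adjusted p = 0.216), and the receptor Bmpr1b had -0.22 ± 0.08 (edgeR, adjusted p = 0.247).

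Skeletal and connective tissue lists also held 0 genes called by edgeR, and 2 genes of cartilage, 1 of joints and 0 of tendon had an unadjusted p under 0.05. Of 23 genes of cartilage formation 3 had every Del(CBS1-3) library below every WT library, where 8.4% of all genes did. The median was -0.06, but -0.25 without Del(CBS1-3) 2 and 0.00509 without Del(CBS1-3) 3. Sox5 and Sox6, partners of Sox9 in cartilage, were among them. Sox5 had 85.9, 88.4 and 84.0 CPM in Del(CBS1-3) and 102, 111 and 108 CPM in WT (log2 fold change -0.31 ± 0.09; edgeR, adjusted p = 0.155), and Sox6 had 103, 92.5 and 98.0 CPM in Del(CBS1-3) and 118, 119 and 119.9 CPM in WT (log2 fold change -0.28 ± 0.09; edgeR, adjusted p = 0.206). Of 12 joint genes (median -0.09, but -0.16 without Del(CBS1-3) 2 and -0.00764 without WT 2), Trps1 had 263, 245 and 255 CPM in Del(CBS1-3) and 298, 298 and 302 CPM in WT (log2 fold change -0.23 ± 0.07; edgeR, adjusted p = 0.163), and Osr2 had -0.17 ± 0.08 (edgeR, adjusted p = 0.395). The 18 tendon and connective tissue genes had a median of 0.11, which was -0.17 without Del(CBS1-3) 2 and 0.20 without Del(CBS1-3) 3, with Tcf4 at -0.10 ± 0.05 and Osr1 at 0.18 ± 0.10.

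Marker lists of other cell types in the dissected tissue held 0 genes called by edgeR. The 28 muscle genes had a median of 0.23, with 0 called and 5 at an unadjusted p under 0.05 by edgeR. In 5 of them (17.9%) every Del(CBS1-3) library lay above every WT library, where 8.49% of all genes did. The summed level was 3210 to 4810 CPM in Del(CBS1-3) and 3060 to 3530 CPM in WT. Without Del(CBS1-3) 2, the highest library, the median was 0.07, and without Del(CBS1-3) 3 it was 0.36. Myog, a regulator of muscle differentiation, had 199, 249.7 and 219.8 CPM in Del(CBS1-3) and 186, 149 and 179.8 CPM in WT (log2 fold change 0.38 ± 0.11; edgeR, adjusted p = 0.154), and Myod1 had 99.9, 125 and 114 CPM in Del(CBS1-3) and 89.4, 66.5 and 93.1 CPM in WT (log2 fold change 0.45 ± 0.13; edgeR, adjusted p = 0.163). The 11 erythroid genes had a median of 0.44, or 0.18 without Del(CBS1-3) 1 and 0.20 without WT 2, with opposite values for the globins Hbb-bh1 (0.84 ± 0.41) and Hbb-bt (-0.59 ± 0.28). The medians were 0.07 for 21 epidermal genes, 0.02 for 14 endothelial genes, 0.11 for 15 macrophage genes and -0.00114 for 12 nerve and Schwann cell genes. These medians moved with single libraries. That of epidermis was -0.03 without Del(CBS1-3) 2 and 0.22 without WT 2, and that of endothelium was -0.11 without Del(CBS1-3) 2 and 0.10 without Del(CBS1-3) 3. That of macrophages was 0.27 without Del(CBS1-3) 3 and -0.05 without WT 2, and that of nerve was 0.07 without Del(CBS1-3) 1 and -0.02 without Del(CBS1-3) 2. By edgeR 0 were called in each, and at an unadjusted p under 0.05 there were 2, 2, 1 and 1. Krt18, a keratin of simple epithelia, had 0.52 ± 0.18, and Cdh1, the adhesion protein of epithelia, had 0.23 ± 0.10. Emcn and Cldn5, proteins of the vessel wall, had 0.35 ± 0.12 and 0.34 ± 0.16, whereas Fcer1g and C1qb of macrophages had 0.61 ± 0.25 and 0.25 ± 0.16. Ngfr, a neurotrophin receptor, had 0.16 ± 0.06, and the neuronal tubulin Tubb3 had 0.33 ± 0.17.

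General cell programmes held 0 genes called by edgeR, and 0 to 4 genes a list had an unadjusted p under 0.05. The lists were proliferation (18 genes, median 0.06), immediate early and heat shock response (18, 0.06), hypoxia and glycolysis (20, -0.04), cholesterol synthesis (19, 0.07), Polycomb (18, -0.03) and imprinted genes (22, 0.06). With 1 library left out, the medians of these 6 lists lay between -0.11 for the immediate early list without Del(CBS1-3) 2 and 0.18 for cholesterol synthesis without WT 3. Ccna2 of the cell cycle had a log2 fold change of 0.10 ± 0.06 and Birc5 also 0.10 ± 0.06. Ier2 had 0.25 ± 0.09 and the chaperone Dnajb1 0.14 ± 0.05. Vegfa, the growth factor of vessels, had -0.33 ± 0.10, and the glycolytic enzyme Gapdh, whose count of under 8 CPM may lack reads shared with its copies, had -0.35 ± 0.19. Pmvk and Cyp51 of cholesterol synthesis had 0.21 ± 0.08 and 0.14 ± 0.06, Pcgf2 and Ezh1 of the Polycomb complexes had -0.12 ± 0.04 and -0.22 ± 0.08, and the imprinted Cdkn1c and H19 had 0.20 ± 0.08 and 0.11 ± 0.05.

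CTCF and cohesin genes were examined because their products act at the deleted sites. Of 11 tested, edgeR called 0, with 2 at an unadjusted p under 0.05, and 4 had every Del(CBS1-3) library below every WT library (36.4%) and 1 above, where 8.4% of all genes lay below and 8.49% above. The median was -0.08, but -0.01 without Del(CBS1-3) 2. Nipbl, the loader of cohesin, had 203, 211 and 214 CPM in Del(CBS1-3) and 222, 244 and 239 CPM in WT (log2 fold change -0.17 ± 0.05; edgeR, adjusted p = 0.187). Pds5a, a regulator of cohesin, had -0.12 ± 0.05 (edgeR, adjusted p = 0.278). Names of cytosolic ribosomal proteins and of the nuclear respiratory chain were gathered by pattern after values were seen, so they are given as a description only. Of 76 ribosomal protein genes 24 lay above WT in every Del(CBS1-3) library (31.6%) with a median of 0.12, and of 82 respiratory chain genes 38 did (46.3%) with a median of 0.14, where 8.49% of all genes did. The part of gene length in these values was not tested.

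Against the neighbouring alleles, Del(CBS1-3) differed at few HoxD genes, and each of these comparisons shares the Del(CBS1-3) libraries with the one above. In Del(CBS1-3) minus Del(CBS1-2), 1150 of 15813 genes were called (7.27%), 617 higher (3.9%) and 533 lower (3.37%), and 1 of the 8 HoxD genes was among them. Hoxd9 was higher, at 53.2 ± 9.09 CPM in Del(CBS1-3) and 41.1 ± 4.55 CPM in Del(CBS1-2) (SD, n = 3 each), with a log2 fold change of 0.37 ± 0.09 (edgeR, adjusted p = 0.0283), and 0.22 ± 0.08 without Del(CBS1-3) 3 (edgeR, adjusted p = 0.155). The call of Hoxd9 was also lost without Del(CBS1-3) 1, or without replicate 1 or 3 of Del(CBS1-2), at adjusted p values of 0.0686, 0.0717 and 0.112 by edgeR. Hoxd3 had -0.47 ± 0.29 (edgeR, adjusted p = 0.323), Hoxd4 0.05 ± 0.20, Hoxd8 0.15 ± 0.11, Hoxd10 0.15 ± 0.08, Hoxd11 0.23 ± 0.11, Hoxd12 -0.12 ± 0.17 and Hoxd13 -0.78 ± 0.45, none with an adjusted p under 0.05. The count of calls fell to 126 without Del(CBS1-3) 1 and to 172 without Del(CBS1-3) 3, and to 190, 190 and 306 without replicates 1, 2 and 3 of Del(CBS1-2).

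In Del(CBS1-4) minus Del(CBS1-3), 2181 genes were called (13.8%), 1028 higher (6.5%) and 1153 lower (7.29%) in Del(CBS1-4), and 2 of the 8 HoxD genes were among them. Hoxd10 was higher in Del(CBS1-4), at 127 ± 6.59 CPM in Del(CBS1-4) and 103 ± 10.2 CPM in Del(CBS1-3) (log2 fold change 0.30 ± 0.08; edgeR, adjusted p = 0.0204). Hoxd13 had 80.6, 58.6 and 22.2 CPM in Del(CBS1-4) and 24.0, 14.7 and 21.7 CPM in Del(CBS1-3) (log2 fold change 1.42 ± 0.44; edgeR, adjusted p = 0.0402), and these groups overlapped. With the distal patterning score as a covariate, the log2 fold change of Hoxd13 was 0.63 ± 0.38 (edgeR, adjusted p = 0.325) and that of Hoxd10 0.31 ± 0.09 (edgeR, adjusted p = 0.062). Without any library but replicate 3 of Del(CBS1-4), Hoxd13 was not called (edgeR, adjusted p = 0.0764 to 0.189), and Hoxd10 was not called without Del(CBS1-4) 1, Del(CBS1-3) 1 or Del(CBS1-3) 2 (edgeR, adjusted p = 0.086, 0.0545 and 0.0729). Hoxd3 had 0.52 ± 0.29 (edgeR, adjusted p = 0.238), Hoxd4 0.05 ± 0.20, Hoxd8 0.04 ± 0.11, Hoxd9 -0.13 ± 0.09, Hoxd11 -0.15 ± 0.11 and Hoxd12 0.20 ± 0.17. The count of calls was 822 without Del(CBS1-4) 1, 1218 without Del(CBS1-4) 3, 1013 without Del(CBS1-3) 1 and 922 without Del(CBS1-3) 3.

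**Figure D5:**
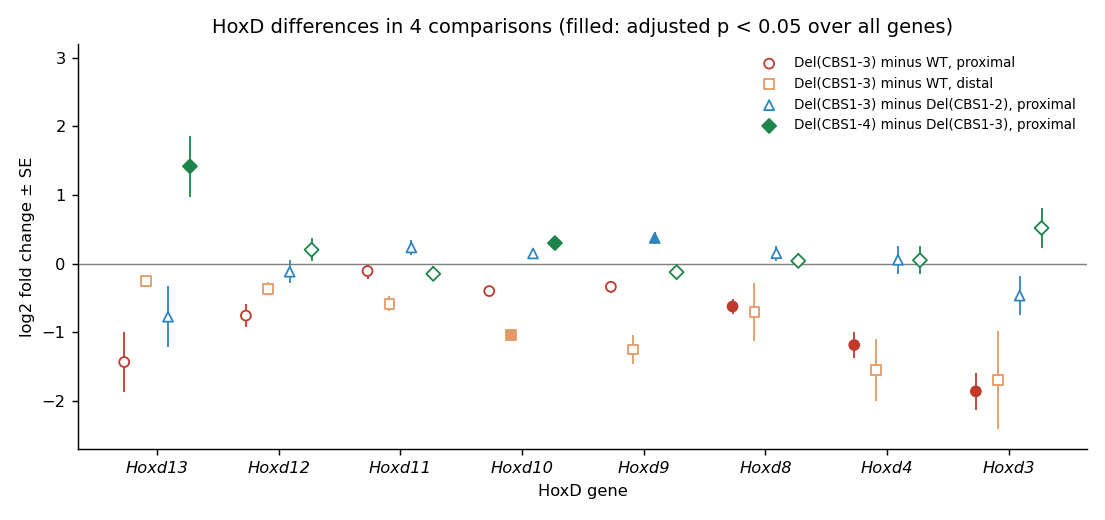
Log2 fold changes with SE for the 8 tested HoxD genes in 4 comparisons, with filled symbols at an adjusted p under 0.05 over all genes. Del(CBS1-3) minus WT lies below 0 at all 8 genes in proximal tissue, lowest at Hoxd3 (-1.86), and in distal tissue Hoxd10 is the filled point at -1.05.

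Outside HoxD, the largest called differences between the alleles fell mostly on gene copies and on ribosomal protein genes. Among the genes higher in Del(CBS1-3) than in Del(CBS1-2) were Rps18-ps6 (160.0 CPM in Del(CBS1-3) and 0.0922 CPM in Del(CBS1-2)), Atp6v0c-ps2 (7.05 CPM in Del(CBS1-3) and 0.0243 CPM in Del(CBS1-2)), Hmga1b (32.4 CPM in Del(CBS1-3) and 0.224 CPM in Del(CBS1-2)), Glo1-ps (10.5 CPM in Del(CBS1-3) and 0.0853 CPM in Del(CBS1-2)), Rnps1-ps (21.2 CPM in Del(CBS1-3) and 0.233 CPM in Del(CBS1-2)) and Pcna-ps2 (20.5 CPM in Del(CBS1-3) and 0.227 CPM in Del(CBS1-2)), each named for a near-identical gene with which it could share reads. Among the lower ones were Tmem181c-ps (0 CPM in Del(CBS1-3) and 3.84 CPM in Del(CBS1-2)), Rpl26 (1.54 CPM in Del(CBS1-3) and 48.4 CPM in Del(CBS1-2)) and Rps18 (4.50 CPM in Del(CBS1-3) and 69.0 CPM in Del(CBS1-2)), and 3 genes without such a copy in their name, Eomes, Smpd3 and Panx3. Eomes, a T-box transcription factor, averaged 1.08 ± 0.608 CPM in Del(CBS1-3) and 15.6 ± 4.49 CPM in Del(CBS1-2). Its libraries had 1.54, 1.3 and 0.387 CPM in Del(CBS1-3) and 5.48, 15.2 and 7.35 CPM in WT (Eomes against WT; edgeR, adjusted p = 0.0764). Smpd3, a sphingomyelinase of growing cartilage, averaged 1.85 ± 1.47 CPM in Del(CBS1-3) and 10.6 ± 0.919 CPM in Del(CBS1-2), and its libraries had 1.15, 3.54 and 0.850 CPM in Del(CBS1-3) and 1.10, 2.31 and 1.09 CPM in WT. Panx3, a channel protein of the skeleton, averaged 1.17 CPM in Del(CBS1-3) and 6.25 CPM in Del(CBS1-2).

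The genes with the largest called differences in Del(CBS1-4) minus Del(CBS1-3) included Rps3a1, Rpl26, Eomes, Smpd3, Hfm1 and Evx2 among the higher ones. Eomes averaged 13.6 ± 4.28 CPM in Del(CBS1-4) and 1.08 ± 0.608 CPM in Del(CBS1-3), and Smpd3 10.5 ± 4.54 CPM in Del(CBS1-4) and 1.85 ± 1.47 CPM in Del(CBS1-3). Evx2 averaged 3.8 CPM in Del(CBS1-4) and 0.101 CPM in Del(CBS1-3). The lower ones included Rtraf-ps, Hoxc5, AA465934 and the erythroid genes Hbb-bh1 and Hemgn. Hbb-bh1, an embryonic globin, averaged 41.8 ± 6.45 CPM in Del(CBS1-4) and 209 ± 95.1 CPM in Del(CBS1-3), and Hemgn, an erythroid nuclear protein, had 0.617 ± 0.203 CPM in Del(CBS1-4) and 4.12 ± 2.12 CPM in Del(CBS1-3). Hoxc5 averaged 2.15 CPM in Del(CBS1-4) and 8.19 CPM in Del(CBS1-3). What part blood content has in these values was not tested.

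In the distal forelimb, the same allele gave 1 call by edgeR of 15361 genes (0.00651%). Hoxd10 fell, at 52.2, 51.2 and 58.7 CPM in Del(CBS1-3) and 113, 118 and 104 CPM in WT (log2 fold change -1.05 ± 0.07; edgeR, adjusted p = 2.36e-07). All 8 HoxD genes had a negative log2 fold change there. Hoxd9 had -1.25 ± 0.21 and Hoxd11 -0.59 ± 0.11 (edgeR, adjusted p = 0.0725 each), Hoxd12 -0.37 ± 0.09 (edgeR, adjusted p = 0.118) and Hoxd13 -0.26 ± 0.08 (edgeR, adjusted p = 0.168). These calls depended on the tool and on single libraries. DESeq2 (0.903% of genes called) also called Hoxd9 (adjusted p = 1.74e-05), Hoxd11 (adjusted p = 0.000619) and Hoxd12 (adjusted p = 0.0151) as lower. Without distal WT 1 (1.08% called), WT 2 (0.0192%) or WT 3 (0.754%), edgeR called Hoxd9 (adjusted p = 0.0257, 0.0463 and 0.0163) and Hoxd11 (adjusted p = 0.0451, 0.0463 and 0.0499), and without WT 1 also Hoxd13 (adjusted p = 0.0472). The anterior genes called in proximal tissue were low in distal tissue, with Hoxd3 averaging 0.301 CPM in Del(CBS1-3) and 1.01 CPM in WT (log2 fold change -1.70 ± 0.71; edgeR, adjusted p = 0.302), Hoxd4 1.69 CPM in Del(CBS1-3) and 4.98 CPM in WT (-1.55 ± 0.45; edgeR, adjusted p = 0.158), and Hoxd8 3.96 CPM in Del(CBS1-3) and 6.48 CPM in WT (-0.71 ± 0.42; edgeR, adjusted p = 0.461).

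The difference between the tissues was tested directly as the proximal effect minus the distal effect, over 16292 genes in all 36 libraries. Hoxd10 was the 1 gene called (0.00614%). Its reduction was smaller in proximal tissue, by 0.63 ± 0.11 on the log2 scale (95% confidence interval 0.41 to 0.86; edgeR, adjusted p = 0.0323). With the embryo as a block, since proximal and distal libraries of the same number come from tissue whose deviations go together, the difference was 0.63 ± 0.11 and was not called (edgeR, adjusted p = 0.122). The call also ended without Del(CBS1-3) 1 or 3, WT 1 or WT 2 of proximal tissue, and without Del(CBS1-3) 1 or 2, WT 1 or WT 2 of distal tissue. With 1 library left out, the difference was 0.56 to 0.70 (edgeR, adjusted p = 0.00617 to 0.312). For Hoxd9 the difference was 0.90 ± 0.23 (95% confidence interval 0.43 to 1.38; edgeR, adjusted p = 0.988), and for Hoxd11 it was 0.47 ± 0.16 (0.13 to 0.81; edgeR, adjusted p = 1.0). Hoxd13 had -1.19 ± 0.45 (-2.13 to -0.26) and Hoxd12 -0.40 ± 0.20 (-0.82 to 0.0093), likewise not called. For Hoxd3 (-1.98 to 1.62), Hoxd4 (-0.63 to 1.33) and Hoxd8 (-0.77 to 0.91) the intervals included 0.

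Genes of the X chromosome and the mitochondrion were read from the FPKM table, since the count table holds autosomes. In limma on log2(FPKM + 1) over 13588 genes, 0 genes were called (0.0%), including 0 of 453 X-linked genes. Of the 453 X-linked genes 66 had an unadjusted p under 0.05, where 2096 of all 13588 genes did. The median log2 fold change of the X-linked genes was 0.04. The mitochondrial genes are listed at 0 FPKM in all 6 libraries and were not tested. Embryo sex was not balanced. Ddx3y, a Y-linked gene, was above 1 FPKM in 2 of 3 Del(CBS1-3) libraries and in 1 of 3 WT libraries, and Xist, expressed from the inactive X, had 0.0596, 0.145 and 171 FPKM in Del(CBS1-3) and 195, 192 and 0.134 FPKM in WT. With Xist as a covariate, 0 genes were called by edgeR, while the log2 fold changes of Hoxd3 (-1.82 ± 0.28; adjusted p = 0.0677), Hoxd4 (-1.19 ± 0.20; adjusted p = 0.0677) and Hoxd8 (-0.63 ± 0.11; adjusted p = 0.0875) were much the same.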

How the data were processed

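Poly(A) RNA from the limbs of individual embryos was sequenced as stranded TruSeq libraries (HiSeq 4000, single reads of 50 nucleotides), per the labels' protocols. The authors deposited whole-number counts per gene for 50833 autosomal genes. They also deposited FPKM values, scaled to gene length and depth, for 55052 genes, of which 4222 on X, Y and M are in that table alone. The submitters' processing notes list STAR 2.7.0, bedtools 2.27.1, cutadapt 1.16, Cufflinks 2.2.1 and mm10. No source used here states how reads were counted or whether strand was used, so overlapping and near-identical genes may share reads.

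Counts were tested with edgeR 4.0.16 in R 4.3.3 (TMM, filterByExpr, quasi-likelihood F test), fitting the 18 libraries of a tissue together, or all 36 for the tissue difference. Calls need an adjusted p under 0.05 (Benjamini-Hochberg, whole table). The 95% intervals use t quantiles with 24 degrees of freedom. FPKM were tested with limma 3.58.1 as log2(FPKM + 1), or + 0.1, in genes with at least 1 FPKM in 3 libraries. X-linked genes were tested this way. Alternatives were DESeq2 1.42.0, other scalings and filters, covariates, a replicate block and leaving out each library. DESeq2 without independent filtering also ran without its cutoff for outlier counts, and was chosen after seeing the data. Scripts were tested on simulated data. Gene type, strand and exonic length came from GENCODE M21. Replicates differed by more than sampling noise (chi-square per degree of freedom 5.1 to 9.9), and p-values measure the spread between individuals.

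Groups and replicate numbers come from the titles. Same-numbered Del(CBS1-3) and WT libraries deviated together (correlations 0.202, 0.146 and 0.351), as did proximal and distal libraries of a number (0.331, 0.404 and 0.545 in Del(CBS1-3), 0.591, 0.425 and 0.577 in WT). This pairing is read from the deviations and is not stated in the labels.

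Members and lists were chosen with earlier results of these data known. The text names the HoxD genes, then called genes whose groups do not overlap and whose higher group averages 50 counts or more (per direction, the 10 largest changes and 8 smallest p against WT, the 6 largest changes between alleles or tissues), and the 2 members of each list without a call that had the smallest p. Unnamed gene models are passed over by this rule. Shox2, Gm14396, Mtx2 and Atp5g3 were named after their values were seen. Some genes that this rule would name are not reported here.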

Additional observations from a re-analysis of the deposited data

Results flagged for a closer look

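Hoxd10 is given here because the effect of Del(CBS1-3) on it differed between the tissues in a direct test. The proximal effect minus the distal effect was 0.633 on the log2 scale (SE 0.108; edgeR, adjusted p = 0.0323), that is, the reduction was smaller in the proximal forelimb. Del(CBS1-3) lay below WT in all 3 libraries of each tissue. With the embryo as a block the adjusted p was 0.122 by edgeR.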

How the results depend on the processing

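Of 285 alternative values for 16 genes, 0 changed sign, 164 kept their side of the threshold, 111 lost the call and 10 gained it. Counts of calls moved more, and the cause was not tested, apart from settings that test other genes or fewer samples. For genes called against WT (11), upper-quartile scaling gave 17, no filter on low counts 462, the distal patterning score 3, Xist as a covariate 0, DESeq2 144 and 112 without independent filtering, the 6 libraries alone 0, and limma 6, 5 and 3 (pseudocounts 1 and 0.1, and no filter on low FPKM). The range with 1 library left out was 0 to 52. At 0 calls, 1764 (Xist), 1523 (6 libraries alone), 1721 (without Del(CBS1-3) 2) and 1995 (without Del(CBS1-3) 3) genes had an unadjusted p under 0.05 by edgeR. For HoxD genes called (3), these were 4 with upper-quartile scaling, 7 without a filter, 1 with the distal score and 0 with Xist. DESeq2 called 3 others at its default and 5 without independent filtering. The 6 libraries alone gave 0, limma 1, 0 and 0, and leaving out 1 library 0 to 3.

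For Del(CBS1-3) minus Del(CBS1-2) (1150), no filter gave 2012, Xist 127, the replicate block 668, limma 672, 659 and 177, and leaving out 1 library 126 to 1680. For Del(CBS1-4) minus Del(CBS1-3) (2181), the distal score gave 645, Xist 1428, the 6 libraries alone 1172, limma without a filter 1155, and leaving out 1 library 822 to 2140, and the replicate block gave 1787. Numbers did not pair these alleles (correlations -0.0336, 0.017 and 0.000374 with Del(CBS1-2), and 0.0848, -0.202 and -0.137 with Del(CBS1-4)). For distal tissue (1), no filter gave 551, the distal score 4, DESeq2 136 and 134 without independent filtering, and leaving out 1 library 1 to 169. For the tissue difference (1), no filter gave 111, and the distal score, the embryo block and the 12 libraries alone 0, and leaving out 1 library 0 to 1. X-linked genes had 0 calls in each alternative run for them. The replicate block changed no other call against WT than those of Fth1 and Arhgap32 among the 11. Low counts limit Hoxd1 and Evx2, for which no fold was given.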

Other observations

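A small set of genes separated the WT libraries from each other rather than from Del(CBS1-3). They were chosen after their values were seen. In 6 genes WT 1 was like Del(CBS1-3), while WT 2 and WT 3 differed from both by at least 4-fold, counted where the higher side had at least 2 CPM. Rps3a1 had 1.15, 1.37 and 1.86 CPM in Del(CBS1-3) and 2.51, 79.4 and 84.6 CPM in WT. Rpl26 had 1.38, 1.23 and 2.01 CPM in Del(CBS1-3) and 1.41, 82.5 and 51.6 CPM in WT. Rps18 had 4.77, 4.62 and 4.10 CPM in Del(CBS1-3) and 5.01, 36.1 and 34.5 CPM in WT. These are genes of ribosomal proteins, which have many near-identical copies, so their counts are uncertain.

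The copy Rps3a3 went the other way, with 180.0, 180.0 and 176 CPM in Del(CBS1-3) and 160.0, 0.187 and 0.34 CPM in WT. Tmem181c-ps, with 0, 0 and 0 CPM in Del(CBS1-3) and 0, 3.93 and 3.06 CPM in WT, and Gm16380, with 0.154, 0 and 0 CPM in Del(CBS1-3) and 0, 2.12 and 2.11 CPM in WT, completed the set.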
